A study of Mus musculus with 9 samples.

Results

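The smooth muscle contractile genes considered here are Acta2, Actg2, Myh11, Mylk, Cnn1, Tagln, Lmod1 and Des. They were chosen by name, as every probe row of the array files whose gene symbol is one of these, which gave 9 of 33012 probes and 8 of 15677 genes. Acta2 had 2 probes, both of which the files also name 0610041G09Rik, and the other 7 genes had 1 probe each. RNA was taken from the jejunum of 9 male mice of the outbred stock OF1, aged 7 weeks, which belonged to generation 3 of a feeding trial and had received feed B, feed K or feed G. Mice 7, 8 and 10 were on feed B, mice 1, 3 and 4 on feed K, and mice 4, 8 and 11 on feed G, with 1 mouse per array and no pooling. None of the feeds was labelled as the control, and the time of day at sampling was not randomized. The RNA came from a piece of the whole gut wall, so muscle, epithelium and connective tissue were measured together.

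Smooth muscle of the gut wall contracts when myosin filaments pull on actin filaments. Calcium bound to calmodulin activates a kinase that phosphorylates the myosin light chain, and actin-binding proteins and intermediate filaments tie the filaments to each other and to the cell. Genes of this apparatus are widely used as markers of differentiated smooth muscle, and many of them are switched on by serum response factor with its coactivator myocardin, through a DNA element called the CArG box.

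The promoter windows of 3 of the genes are shown because they hold letters like those of elements known from muscle promoters. RefSeq windows, from 250 bases before to 50 bases after the annotated start in the GRCm38.p6 build, were at hand for Acta2, Mylk, Cnn1, Lmod1 and Des, 5 of the 8 genes. Capitals mark 10-letter stretches that differ from the CArG box at 1 position, and the letters CATTCC or their reverse complement GGAATG, known as the MCAT element.
Acta2, chromosome 19, chr19:34255324-34255623, - strand: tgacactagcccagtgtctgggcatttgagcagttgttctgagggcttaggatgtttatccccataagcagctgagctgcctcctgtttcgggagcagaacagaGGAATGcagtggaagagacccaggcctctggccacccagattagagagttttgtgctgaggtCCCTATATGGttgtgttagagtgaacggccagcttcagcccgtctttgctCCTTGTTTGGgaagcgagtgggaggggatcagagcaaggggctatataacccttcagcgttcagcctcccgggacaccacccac
Lmod1, chromosome 1, chr1:135324563-135324862, + strand: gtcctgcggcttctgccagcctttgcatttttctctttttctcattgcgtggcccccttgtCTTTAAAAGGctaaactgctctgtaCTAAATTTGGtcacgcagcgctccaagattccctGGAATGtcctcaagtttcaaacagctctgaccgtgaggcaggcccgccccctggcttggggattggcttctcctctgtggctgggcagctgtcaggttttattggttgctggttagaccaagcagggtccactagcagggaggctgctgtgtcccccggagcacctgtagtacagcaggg
Mylk, chromosome 16, chr16:34784700-34784999, + strand: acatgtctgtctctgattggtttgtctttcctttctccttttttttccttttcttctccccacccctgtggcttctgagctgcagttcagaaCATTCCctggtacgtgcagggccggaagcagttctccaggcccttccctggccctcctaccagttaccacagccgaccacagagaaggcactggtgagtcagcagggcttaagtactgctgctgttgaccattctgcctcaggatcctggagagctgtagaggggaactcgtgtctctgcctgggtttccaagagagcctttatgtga

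No exact CArG box was found in any of the 5 windows, compared with 1.63% of 32851 mouse windows of the same length that hold one. A CArG box with 1 mismatch was found in Acta2, as CCCTATATGG starting 84 bases and CCTTGTTTGG starting 34 bases before the annotated start, and in Lmod1, as CTTTAAAAGG starting 189 bases and CTAAATTTGG starting 164 bases before it. Such a stretch occurs in 19.9% of all windows. CATTCC, searched on both strands, was found in Acta2, Lmod1 and Mylk and occurs in 14.7% of all windows. None of these matches overlapped another. The windows of Cnn1 and Des held neither the 1-mismatch stretch nor CATTCC. These matches describe the letters of the windows and were not tested for binding.

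All 8 genes were detected in the jejunum, where a probe counts as detected if its signal is at least 3 times the noise. Actg2, Myh11, Mylk, Tagln, Lmod1, Des and the first probe of Acta2 were detected on 9 of 9 arrays and Cnn1 on 8 of 9, whereas the second probe of Acta2 was detected on 6 of 9. Over the whole array between 33.7% and 48.1% of probes were detected. Epithelium was part of the samples: 16 of 20 epithelial marker genes, among them Vil1 (villin of the brush border) and Epcam, had a probe. All 16 were detected on all 9 arrays, beside 5888 of 15677 genes. These markers were not chosen to tell the jejunum from other parts of the gut, so the label itself was not checked. Of the 9 markers of striated muscle with a probe, none was detected on all 9 arrays, but Ckm and Tnnt1 were detected on 8 and Actc1 on 7. Myh7 and Tnnt3 were detected on none. Values below are normalized log2 signals, given in the order of the mice named above, and levels are not compared between probes.

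The actins form the thin filament. Actg2, the smooth muscle gamma actin that predominates in visceral muscle, had values of 14.96, 14.82 and 14.81 in feed B, 15.08, 14.63 and 15.09 in feed K, and 15.01, 14.72 and 14.61 in feed G. The feeds overlapped, and the highest mouse had 1.39 times the signal of the lowest. Acta2, the smooth muscle alpha actin shared with vascular muscle and pericytes, averaged over its probes 9.59, 9.24 and 8.93 in feed B, 9.97, 9.33 and 7.83 in feed K, and 9.73, 9.40 and 8.71 in feed G. The feeds again overlapped, and mouse 4 of feed K was the lowest.

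The spread of the Acta2 average lay in its second probe. The first probe, with signal-to-noise ratios between 19.0 and 45.7, ran from 10.50 to 11.46 with an SD of 0.31 over the 9 mice. The second, with ratios between 0.46 and 7.91, ran from 4.67 to 8.82 with an SD of 1.19, and its values on the 3 arrays where it was not detected, 4.67 among them, carry no exact level. Mouse 4 of feed K, the lowest for the Acta2 average, was the mouse in which this dim probe was at 4.67, while the bright probe read 10.99 there. Over the 9 mice both probes had a Pearson r of 0.19, given as a description. The probe sequences were not used here, and whether these actin probes tell the closely related actin genes apart was not tested.

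**Figure D1:**
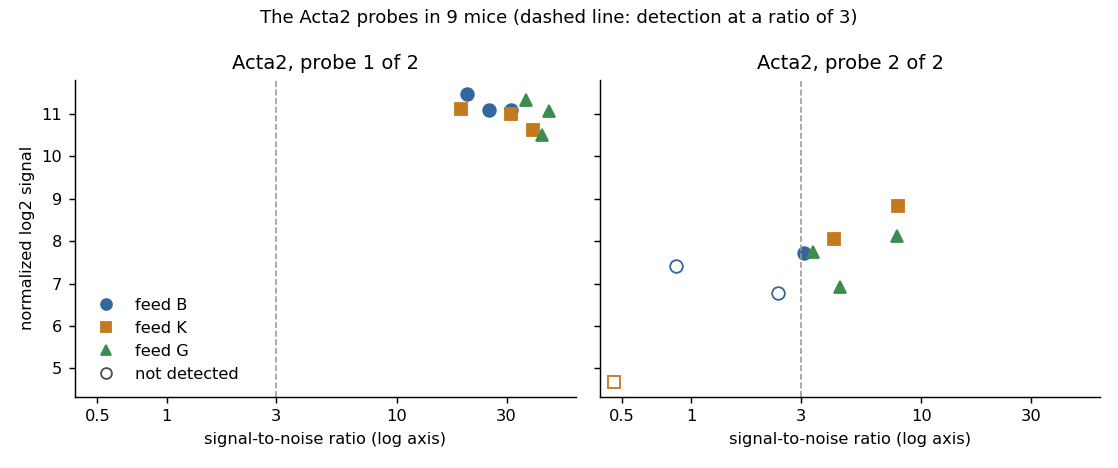
Normalized log2 signal of the Acta2 probes (vertical axis) against their signal-to-noise ratio (horizontal log axis), 1 point per mouse, with the shape and colour giving the feed and open symbols marking arrays where the probe was not detected. The first probe stays between 10.50 and 11.46 at ratios of 19.0 or more, whereas the second spreads from 4.67 to 8.82 and lies below the detection line of 3 in 3 mice.

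Myh11, the smooth muscle myosin heavy chain of the thick filament, had values of 14.59, 14.49 and 14.79 in feed B, 14.97, 14.40 and 14.59 in feed K, and 14.87, 14.78 and 13.85 in feed G. Mylk, which encodes the myosin light chain kinase, read 14.90, 14.71 and 14.87, then 15.01, 14.80 and 14.75, then 15.03, 14.99 and 14.22. For both genes mouse 11 of feed G stood below all other mice, and feeds B and K overlapped. Mice 4 and 8 of feed G lay above all 3 mice of feed B for Mylk, but not for Myh11. The 9-mouse range was 2.17-fold for Myh11 and 1.76-fold for Mylk, and without mouse 11 it was 1.48-fold and 1.25-fold.

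Among the actin-binding proteins, Tagln (transgelin) had values of 14.34, 14.42 and 14.73 in feed B, 14.48, 14.20 and 14.62 in feed K, and 14.48, 14.44 and 13.74 in feed G. Lmod1 (leiomodin, which nucleates actin filaments in smooth muscle) read 11.37, 11.25 and 11.49, then 11.62, 11.26 and 11.30, then 11.87, 11.62 and 11.00. Mouse 11 of feed G was the lowest for both, while mice 4 and 8 of the same feed were among the highest for Lmod1. Cnn1 (calponin, an inhibitor of the myosin ATPase) read 9.19, 8.56 and 8.40, then 8.90, 8.96 and 8.35, then 9.08, 8.92 and 8.92. Cnn1 was a dim probe with signal-to-noise ratios of up to 18.0 and below 3 on 1 array, and mouse 11 lay in the middle of its values. Des (desmin, the muscle intermediate filament) had values of 13.72, 13.73 and 14.10 in feed B, 14.22, 13.79 and 14.03 in feed K, and 14.08, 13.81 and 13.36 in feed G. Mouse 11 was again the lowest, and the feeds overlapped.

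**Figure D2:**
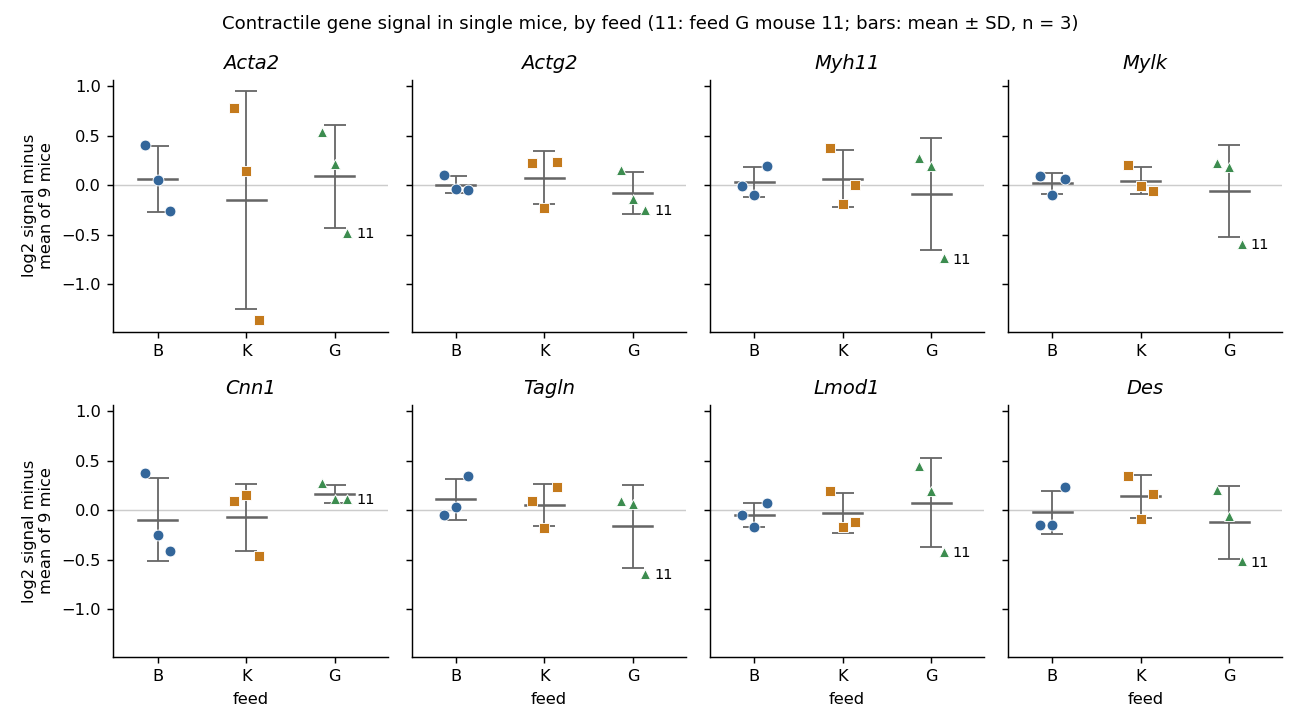
Log2 signal of each gene minus its mean over the 9 mice (vertical axis) by feed (horizontal axis), 1 point per mouse, with the mean and SD of the 3 mice of a feed as bars. The 3 feeds overlap for every gene, and mouse 11 of feed G is the lowest point for Actg2, Myh11, Mylk, Tagln, Lmod1 and Des.

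The spread between mice was like that of other well detected genes. The SD over the 9 mice was 0.19 for Actg2, 0.25 for Mylk, 0.26 for Lmod1, 0.27 for Des, 0.28 for Tagln, 0.30 for Cnn1 and 0.33 for Myh11, and 0.64 for the Acta2 average. The median of 0.28 compared with 0.42 over all genes detected on at least 3 arrays and with 0.29 over those detected on all 9. The signal stayed within a 2-fold range for 6 of the 8 genes, beside 57.9% of the 5888 genes detected on all arrays, the exceptions being Acta2 and Myh11. The 6 genes other than Acta2 and Cnn1 had a median SD of 0.26, beside 0.25 over 2293 genes at least as bright as the dimmest of them. Without mouse 11 of feed G the median SD of the 8 genes was 0.19.

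The first comparison asked whether the contractile genes differed between feeds. No difference passed the test. With limma's F test of the feeds, 0 of 8 genes passed at an adjusted p of 0.05 and 0 of 8 at an unadjusted p of 0.05, against a background of 0% and 5.37% of 9654 genes tested. Adjusted p-values lay between 0.920 (Tagln) and 0.987 (Mylk), and exact permutation p-values over the 280 splits of the mice between 0.532 (Des) and 0.982 (Mylk). The mice are separate animals, so p-values measure the spread between these mice. The pairs of feeds gave the same count in limma: 0 of 8 at an unadjusted p of 0.05 for feed K against B (background 6.31%), for feed G against B (5.74%) and for feed G against K (4.54%), with 0 of 8 and a background of 0% at an adjusted p of 0.05.

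For Myh11 the means were 14.62 ± 0.15 (SD, n = 3) in feed B, 14.65 ± 0.29 in feed K and 14.50 ± 0.56 in feed G. For Mylk they were 14.82 ± 0.10, 14.85 ± 0.14 and 14.75 ± 0.46, and for Des 13.85 ± 0.22, 14.01 ± 0.22 and 13.75 ± 0.37. Feed G, which holds mouse 11, had the widest SD in each of these genes. The largest differences were -0.21 (SE 0.53, 95% interval -1.42 to 1.00) for Acta2 in feed K against B, -0.27 (SE 0.25, -0.85 to 0.31) for Tagln in feed G against B, and -0.26 (SE 0.24, -0.82 to 0.29) for Des in feed G against K. Without mouse 11 of feed G the second was -0.032 and the third -0.065. The first rests in part on the dim Acta2 probe, which was not detected in mouse 4 of feed K, and was -0.31 (SE 0.26) with the bright probe alone. It turned to 0.41 without mouse 4 of feed K and to 0.14 with each array scaled to its median, and the second turned to 0.26 under that scaling and to 0.048 in the series table.

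The median difference over the 8 genes was 0.026 in feed K against B, -0.081 in feed G against B and -0.13 in feed G against K, beside 0.054, 0.061 and -0.0073 over all genes tested. Without mouse 11 of feed G the median over the 8 genes turned to 0.20 in feed G against B and to 0.16 in feed G against K. With each array scaled to its median, the medians in the 3 comparisons were 0.41, 0.53 and 0.11 over all genes and 0.41, 0.45 and 0.040 over the contractile genes. For the 6 genes other than Acta2 and Cnn1, the 95% intervals of all 3 comparisons lay between -0.85 and 0.72 and reached a 1.81-fold difference at their widest. No contractile gene had 3 mice of one feed wholly above or below the 3 of another. Among all genes this separation was found for 6.26% (higher) and 3.68% (lower) in feed K against B, for 6.30% and 4.65% in feed G against B, and for 6.31% and 7.37% in feed G against K.

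The second comparison asked whether the contractile genes rose and fell together from mouse to mouse, as genes of the same tissue layer can when samples differ in its content. Over the 28 pairs of genes the median Pearson r across the 9 mice was 0.58, and 23 of 28 pairs were above 0. The median over all pairs of genes detected on all arrays was 0.023, and 9007482 of these 17331328 pairs were above 0. An r of 0.75 or more was found in 8 of the 28 pairs (28.6%), compared with 2.56% of all pairs.

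Myh11 and Mylk were each in 4 of these 8 pairs. In exact two-sided permutation tests with Benjamini-Hochberg adjustment over the 28 pairs, 6 pairs passed 0.05 and 12 passed before adjustment. Myh11 and Mylk, the motor and the kinase that activates it, had an r of 0.95 (p = 0.00084, adjusted p = 0.0118, permutation test) and a Spearman rho of 0.83 (adjusted p = 0.0386). Mylk and Lmod1 had an r of 0.87 (p = 0.00064, adjusted p = 0.0118, permutation test) and a rho of 0.97 (adjusted p = 0.00463). Both pairs were ordered alike by level and by rank.

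Myh11 also paired with Lmod1 (r = 0.89, p = 0.00127, adjusted p = 0.0119, permutation test, rho = 0.93, adjusted p = 0.0105) and with Des (r = 0.90, p = 0.00172, adjusted p = 0.0121, rho = 0.90, adjusted p = 0.0189, permutation test). Tagln and Des had an r of 0.86 (p = 0.00429, adjusted p = 0.0240, permutation test) and a rho of 0.87 (adjusted p = 0.0316). Myh11 and Tagln had an r of 0.86 at the edge of the threshold (p = 0.0106, adjusted p = 0.0495, permutation test), and their rho of 0.80 did not pass (adjusted p = 0.0553). After the 2 mice farthest from the median of the first gene were left out, r was 0.81 for Myh11 with Mylk, 0.91 for Myh11 with Lmod1, 0.66 for Myh11 with Des, 0.91 for Mylk with Lmod1, 0.62 for Tagln with Des and 0.60 for Myh11 with Tagln. Mouse 11 of feed G was 1 of the 2 mice left out in each of these pairs.

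**Figure D3:**
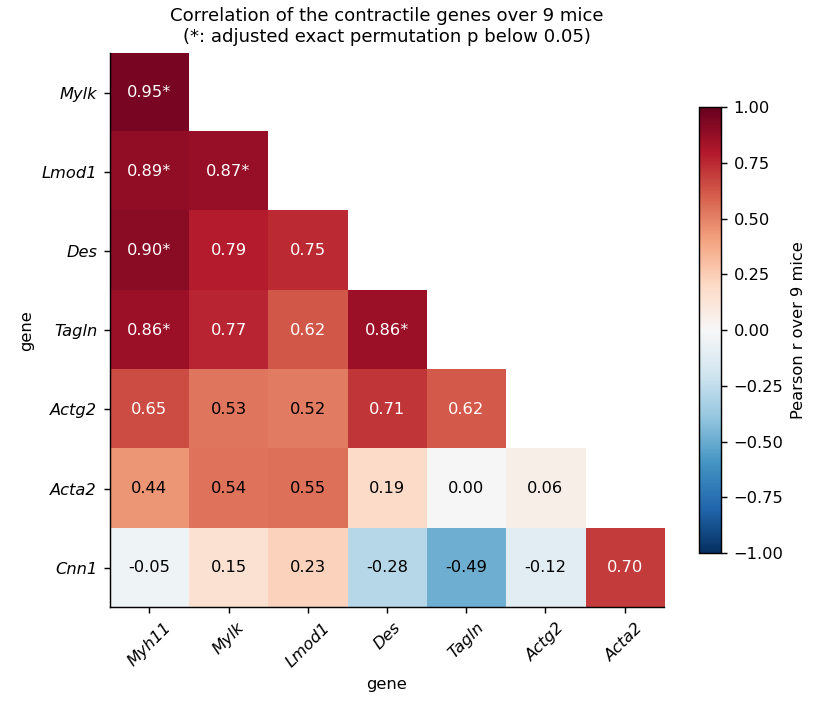
Pearson r over the 9 mice for each of the 28 pairs of contractile genes, with colour from -1 to 1 and an asterisk where the adjusted exact permutation p was below 0.05. The pairs among Myh11, Mylk, Lmod1, Des and Tagln run from 0.62 to 0.95, and the pairs of Cnn1 from -0.49 to 0.70.

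The lowest correlations were those of Cnn1 and of the Acta2 average. All 15 pairs among Actg2, Myh11, Mylk, Tagln, Lmod1 and Des, the 6 genes detected on every array with every probe and grouped after the values were seen, were above 0, with a median r of 0.77. Cnn1 had an r of -0.49 with Tagln (p = 0.180, adjusted p = 0.266, permutation test) and of -0.28 with Des, and of 0.70 with Acta2 (p = 0.0287, adjusted p = 0.0830, permutation test). The r of Cnn1 with Tagln turned to 0.45 with median scaling and to 0.30 in the series table. The Acta2 average had an r of 0.54 with Mylk, and a Spearman rho of 0.85 that passed (adjusted p = 0.0340, permutation test). Both Cnn1 and the second Acta2 probe were dim. The bright Acta2 probe had a median r of 0.67 with the other 7 genes (from 0.16 with Cnn1 to 0.73): 0.73 with Myh11 and Mylk, 0.70 with Actg2, 0.67 with Lmod1, 0.64 with Tagln and 0.50 with Des. The dim probe had a median r of 0.29 (from -0.17 to 0.72).

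With the mean of each feed subtracted, r was 0.95 for Myh11 with Mylk and 0.98 for Myh11 with Lmod1. It was 0.93 for Myh11 with Des and 0.95 for Mylk with Lmod1. These values pool the feeds and include mouse 11 of feed G, and they were not computed without it. With quantile normalization, much of the co-variation rested on 1 animal. The pairs were not recomputed without this animal under other scalings. Without mouse 11 of feed G the median r over the 28 pairs was 0.43, 22 pairs were above 0, and Mylk with Lmod1 was the 1 pair that passed in the permutation test (r = 0.91). Myh11 with Mylk then had an r of 0.84, which did not pass, and Myh11 with Tagln of 0.51. The median over all gene pairs was 0.028 without this mouse. Under other scalings the median r was higher among the contractile genes and among all genes, though not for every pair: with median scaling the median over the 28 pairs was 0.80 but that over all gene pairs was 0.58, and in the series table they were 0.72 and 0.42.

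**Figure D4:**
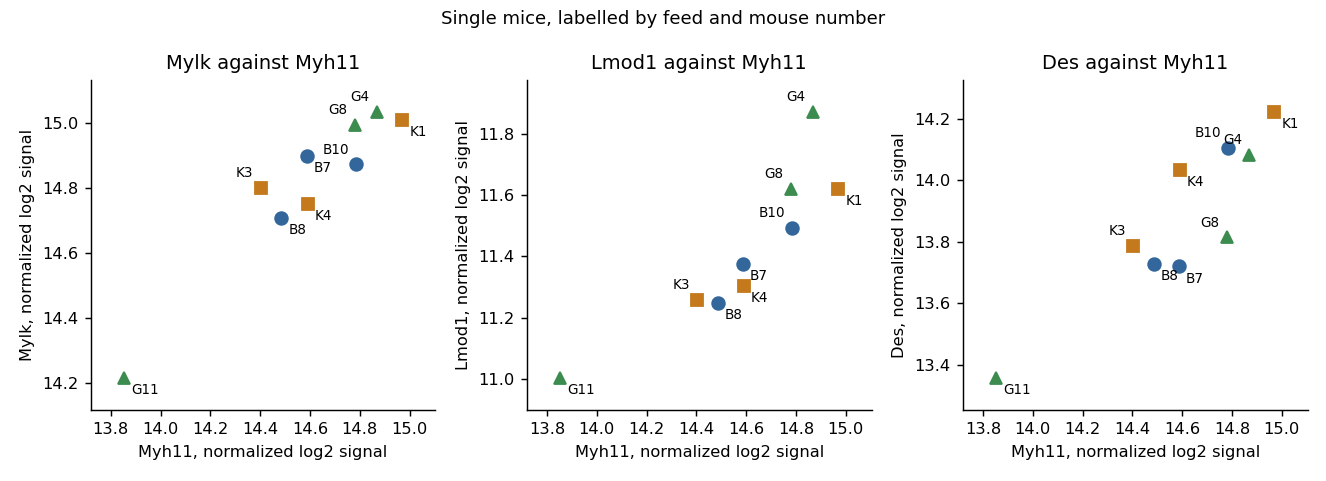
Normalized log2 signal of Mylk, Lmod1 and Des (vertical axes) against Myh11 (horizontal axis), 1 point per mouse, labelled by feed letter and mouse number. Mouse 11 of feed G lies at the lower left in all 3 panels, and the other 8 mice still run upward, with r = 0.84 for Mylk and 0.87 for Lmod1.

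Mouse 11 of feed G had the lowest value for 6 of the 8 contractile genes. It was lowest for 17.3% of the 5888 genes detected on all arrays. Against the median of the other 8 mice its signal was lower by 1.78-fold for Myh11, 1.65-fold for Tagln, 1.59-fold for Mylk, 1.48-fold for Des, 1.35-fold for Lmod1 and 1.22-fold for Actg2. At the other end, mouse 1 of feed K was highest or next to highest for 6 of the 8 genes and mouse 4 of feed G for 5. These ranks were taken with quantile normalization, and the share of all genes was not counted for them. In RNA of whole gut wall, fewer muscle cells and less RNA per muscle cell cannot be told apart.

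Most epithelial genes read higher in this mouse. Of the 16 markers detected on all arrays, 13 were above the mean of the other 8 mice and 3 below it, namely Apoa4 (by -0.46 on the log2 scale), Slc5a1 (-0.41) and Anpep (-0.29). The share of all genes above that mean was not counted. The median difference from it was 0.38 for the 16 markers and -0.022 for the 5888 genes. Over these genes it was 0.33 with median scaling and 0.22 in the series table, so the level in this mouse depends on the scaling. The mean of 16 epithelial markers, centred on its average over the mice, was 0.31 in mouse 11 and between -0.31 and 0.10 in the other 8, and the mean of the 6 contractile genes other than Acta2 and Cnn1 was -0.53 against -0.14 to 0.24. Of the 16 markers, 7 were highest in mouse 11 (43.8%, beside 13.3% of the 5888 genes) and none was lowest. Krt8, a keratin of simple epithelia, was at 19.78 there and between 18.21 and 18.65 elsewhere, while Vil1 was at 17.95 within the range of the others. By feed, the epithelial mean with quantile normalization ran from -0.31 to -0.048 in feed B, from 0.089 to 0.10 in feed K and from -0.092 to 0.31 in feed G. Feeds B and K overlapped under the other scalings. Mouse 4 of feed K was at -0.10 and mouse 10 of feed B at -0.037 with median scaling. In the series table they were at -0.22 and -0.13. The part of the epithelial mean in the level of the contractile genes was not tested.

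In mouse 11 the gap between both groups of genes lay outside the range of the other mice under 3 scalings. These are not separate checks of the gap, and the rank of the mouse changed. The contractile genes in this gap were grouped after the values were seen. The contractile mean minus the epithelial mean was -0.84 in mouse 11 and between -0.23 and 0.30 in the others. It was -0.70 against -0.12 to 0.27 with median scaling, and -0.73 against -0.097 to 0.25 in the series table. Median scaling multiplies each array by a constant factor, which cancels in this difference of log2 means. The gap with median scaling was therefore that of the unscaled signals. The divisor of the series table is not known, and it was not constant over every array. Between median scaling and the series table, the difference of feed K against B went from 0.42 to 0.17 for Actg2. For Myh11 it went from 0.42 to 0.29. The gap in the series table was therefore not fixed by this cancelling. With median scaling, however, mouse 11 was lowest for 0 of the 8 genes, and in the series table for 2 of 8. In mouse 11 Cnn1 was above the mean of the other mice, by 0.13 with quantile normalization. The median difference of the 8 genes from the other mice still lay below that of all genes on the log2 scale. The amount was 0.54 with quantile normalization, 0.54 with median scaling and 0.60 in the series table. A constant factor per array cancels in this amount too, which covers median scaling but not the series table. Across all 9 mice the contractile and epithelial means had an r of -0.50 with quantile normalization, of 0.68 with median scaling and of 0.43 in the series table, so its sign depended on the scaling. Without mouse 11 these were 0.14, 0.92 and 0.85. They are descriptions with no test.

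**Figure D5:**
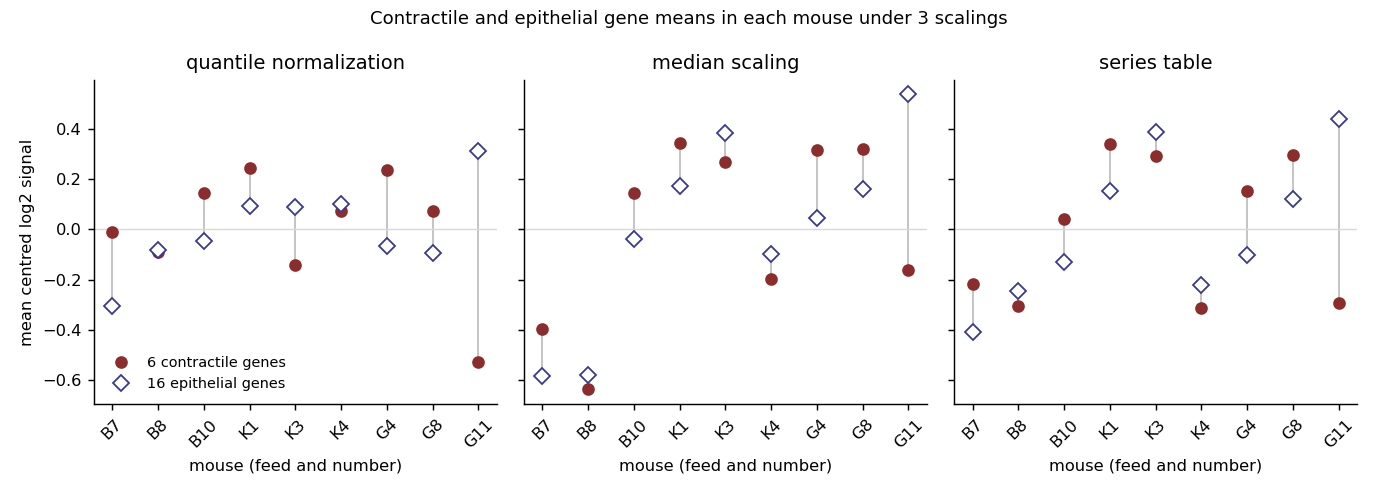
Mean centred log2 signal (vertical axis) of 6 contractile genes (filled) and 16 epithelial genes (open) in each mouse (horizontal axis), under quantile normalization, median scaling and the series table. Mouse 11 of feed G has the widest gap, -0.84, -0.70 and -0.73, with the contractile genes below.

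Other genes of the muscle apparatus were described by list. Of 30 further filament and cytoskeleton genes 26 had a probe and 22 were tested, of 25 genes of contraction signalling 23 and 17, and of 10 muscle transcription genes 10 and 9. In limma's F test 0 genes of these lists passed at an adjusted p of 0.05, and at an unadjusted p of 0.05 the counts were 0, 1 and 0, beside the background of 5.37%. The 1 gene was Pln (phospholamban, which restrains the calcium pump of the sarcoplasmic reticulum), with means of 9.09 in feed B, 8.53 in feed K and 8.43 in feed G (unadjusted p = 0.0271, adjusted p = 0.895, limma).

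The genes of these lists that followed the mean of the 8 contractile genes most closely were Smtn (smoothelin, r = 0.83), Tpm2 (beta tropomyosin, 0.81), Cnn3 (calponin 3, 0.78), Synm (synemin, an intermediate filament partner of desmin, 0.70) and Cald1 (caldesmon, 0.70). In a ranking of 5881 genes by this r they stood at places 26, 38, 53, 146 and 152. These 5 were picked for that r, which mouse 11 weighs on, and mouse 11 was lowest for each: Tpm2 was at 14.80 there and between 15.29 and 15.92 in the others, and Smtn at 10.59 against 10.92 to 11.44. Over the whole lists, counting genes detected on all arrays, it was lowest for 7 of 17 filament genes, 2 of 10 signalling genes and 0 of 3 transcription genes, beside 17.3% of all genes. The mean of the filament list had an r of 0.31 with the contractile mean, that of the signalling list 0.37 and that of the transcription list -0.50. Without mouse 11 of feed G these were 0.27, 0.31 and -0.10. With the mean of the 6 genes other than Acta2 and Cnn1, they were 0.49, 0.37 and -0.71. Without mouse 11 these became 0.63, 0.33 and -0.44, so the sizes depended on which genes entered the mean. Tagln2 and Myl6, which non-muscle cells express as well, had an r of -0.54 and -0.50, and Srf, the serum response factor, had an r of -0.68 and was at 11.62 in mouse 11 and between 10.34 and 11.33 elsewhere. With the mean of the 6 brighter genes the r of Srf was -0.52, and 0.082 without mouse 11. Myocd, its coactivator, was detected on 3 arrays.

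Among the cell type lists, the mean of the fibroblast genes, such as Col1a1 and Col1a2 (the collagen I chains), had an r of 0.58 with the contractile mean over the 9 mice, that of enteric neurons and glia, such as Tubb3 and Stmn2, 0.40, that of endothelium and pericytes 0.33, that of interstitial cells of Cajal 0.42, that of striated muscle 0.14, that of adipocytes 0.12, that of lymphoid cells -0.084 and that of the epithelium -0.58. Kit, the receptor that marks interstitial cells of Cajal, had an r of 0.81 with the contractile mean and its lowest value, 7.86, in mouse 11. Ano1, the chloride channel of the same cells, had an r of -0.39. With the mean of the 6 genes other than Acta2 and Cnn1, Kit had an r of 0.66, and of 0.26 without mouse 11. Without mouse 11 of feed G, r of the list means with the mean of all 8 genes was 0.41 for fibroblasts and 0.26 for enteric neurons and glia. It was 0.46 for endothelium and pericytes, 0.51 for interstitial cells of Cajal and 0.57 for striated muscle. For adipocytes it was 0.24, for lymphoid cells -0.18 and for the epithelium -0.18. With the mean of the 6 genes, also without mouse 11, these were in the same order 0.20, 0.52, 0.46, 0.14, -0.039, 0.43, -0.023 and 0.14. Sizes and signs thus depended on which genes entered the mean. These values are descriptions, the lists share the 9 arrays, and their part in the contractile signal was not tested. The share of detected probes per array had an r of -0.010 with the contractile mean.

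Of the 5881 genes ranked by likeness to the mean of the 8 contractile genes over the 9 mice, the closest were Ldh2 (r = 0.94), 1110007M04Rik (0.92), Lamb2 (a laminin chain of basement membranes, 0.91), Mist1 (0.91), Adprtl2 (0.91), Ube2d3 (0.90), Cbx2 (0.90), Hmgb3 (0.90), Vegfb (0.89) and AI551766 (0.87), named as in the files. At the opposite end were Ms4a8a (-0.93), BC015286 (-0.93), Mrgprf (-0.91), Mvp (-0.91) and Egln3 (-0.88). An r of 0.8 or more was reached by 0.697% of the genes ranked. These places depended on which contractile genes entered the mean. With the 6 genes other than Acta2 and Cnn1, a choice made after the values were seen, 1 of the 10 closest genes, Lamb2, was shared, and Tpm2 (0.93), Smtn (0.93) and Cald1 (0.92) stood at places 5, 6 and 7. Without mouse 11 they stood at places 43, 13 and 90 of that ranking.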

How the data were processed

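Jejunal RNA of 9 mice was hybridized to chemiluminescent single-colour arrays with probes of 60 bases. Per array, the deposited table gives signal intensity after the scanner's background correction and spatial normalization, with a signal-to-noise ratio score and a quality flag. The authors also deposited a series table of assay-normalized signal intensity, whose divisor is not known. The submitters' processing notes name RMA. The labels give Trizol and RNeasy columns for RNA isolation, the methods Qiazol and miRNeasy.

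Spots flagged above 5000 were dropped, the 9 arrays were quantile normalized to their arithmetic mean as in the study's methods, and log2 values of probes with the same gene name were averaged. Feeds were compared in limma 3.58.1 (R 4.3.3; lmFit and eBayes with 1 mean per feed) over 9654 genes detected on at least 3 arrays, with Benjamini-Hochberg adjustment. Correlations over mice, exact permutation tests and figures were computed in Python 3.11.15 with numpy 2.4.6, pandas 2.3.3 and scipy 1.17.1. Both procedures were tested on simulated data. List means used genes detected on at least 5 arrays. The members and lists were chosen with earlier results of these data known. Genes named besides the 8 are the listed muscle genes with an unadjusted p below 0.05 or among the 5 most alike, the 10 most and 5 least alike genes of the array, and the first detected of each marker list. Tagln2, Myl6, Srf, Myocd, Krt8, Apoa4, Slc5a1, Anpep, Kit, Ano1 and the striated muscle genes were named after their values were seen. The alternatives tried were scaling to the array median, the series table after log2, the brightest probe, keeping failed spots, other filters, exact tests, subtracted feed means and leaving out each mouse. The brighter Acta2 probe alone and the 6 brighter members were added after seeing the data. The number of arrays limits the precision.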

Additional observations from a re-analysis of the deposited data

Results flagged for a closer look

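Mylk in mouse 11 of feed G lay apart from the other 8 mice: its gap to the nearest mouse was 0.5997 of the whole range, above Dixon's 95% critical value for 9 samples. The mean of the 6 brighter contractile genes in the same mouse had a gap of 0.499 of the range, but this grouping was made after the values were seen, and the mean of all 8 genes had a gap of 0.367, below the critical value. The mean of the endothelium and pericyte list in mouse 8 of feed B had a gap of 0.547. Both ends of 21 series of 9 values were examined, and chance places about 1 in 20 such series above the critical value.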

How the results depend on the processing

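No paired analysis was possible because the feeds share at most 1 mouse number. No contractile gene reached an unadjusted p of 0.05 in any setting, with any filter or in the exact permutation test, which was run for the 8 genes and not over all genes. Over all genes, restricting the limma test to genes detected on all 9 arrays gave 1 gene in the F test and 1 in feed G against B. Leaving out each mouse gave between 0 and 3 genes in the F test, 0 and 10 in feed K against B, and 0 and 3 in feed G against B, the highest counts without mouse 10 of feed B. In feed K against B, Acta2 turned to 0.14 with median scaling, and leaving out each mouse gave between -0.68 and 0.41, the latter without mouse 4 of feed K. In feed G against B, Tagln turned to 0.26 with median scaling and to 0.048 in the series table. The r of Cnn1 with Tagln turned to 0.45 and 0.30 in these settings. The causes were not tested. Of the 28 pairs, 20 passed with median scaling (median r 0.80) and 14 in the series table (0.72). Among all gene pairs, r also rose. It was 0.75 or more in 26.2% with median scaling and 12.7% in the series table, beside 2.56% with quantile normalization. With feed means subtracted 10 pairs passed, but that permutation did not allow for the fitted feed means, so its p-values tend to be too small. Leaving out each mouse gave between 1 and 9 pairs and a median r between 0.43 and 0.71, the lowest without mouse 11 of feed G and the highest without mouse 4 of feed K. The 15 pairs of the 6 brighter genes had a median r of 0.77. Mylk with Lmod1 passed in all 15 alternatives, Myh11 with Mylk, Lmod1 and Des in 14 each, Tagln with Des in 13 and Myh11 with Tagln in 7. The 15 include the brightest probe and the brighter Acta2 probe, which leave the values of these genes unchanged. They also include the subtracted feed means and the scalings under which r rose among all gene pairs. The median SD stayed between 0.19 and 0.41. Dim probes, here Cnn1 and the second Acta2 probe, limit what their values can show.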
